A study of Mus musculus with 12 samples.

Results

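The comparison described here set the hippocampus of mice 4 h after lipopolysaccharide (LPS, a wall component of Gram-negative bacteria) against the hippocampus of mice 4 h after saline, across all genes that the arrays measured. It holds 6 of the 12 arrays of the series, 3 per group, and was chosen by the sample titles alone. Transcript probes were kept if all 3 arrays of either group showed them well above background, which left 23692 of 41174 probes and 15941 genes, of 18177 genes that any group of the series measured. All mice were male C57BL/6N, 12 weeks old, and kainate, which activates a class of glutamate receptors, had been injected into the left dorsal hippocampus of each (50 nl at 20 mM). Recurrent seizures had followed, and 3 weeks after kainate the mice were given a single intraperitoneal dose of saline or of 100 µg/kg LPS from Salmonella enterica. The labels give whole hippocampus as the tissue, do not state which side was taken, and name no mice without kainate, so each difference below is between kainate-treated groups.

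LPS is sensed by Toll-like receptor 4 with its co-receptor CD14, on macrophages, microglia and the cells of vessel walls. The receptor acts through NF-kappaB, which turns on cytokines and chemokines, and through interferon regulatory factors, which turn on interferon. Cytokines in blood then act on brain endothelium, which displays adhesion molecules and makes prostaglandins, and the adrenal gland releases glucocorticoids. In whole tissue, fewer cells of a type and less RNA per cell cannot be told apart.

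Values per array are processed fluorescence intensities divided by the 75th percentile of the same array, so that 1 is the 75th percentile, and are called relative intensities. Differences are log2(LPS) minus log2(saline) with the standard error (SE) of the limma fit, and adjusted p values are Benjamini-Hochberg values over all 15941 genes. For a gene that no array of the dimmer group showed well above background, the fold is a lower bound against the lowest signal called above background there, or the gene's own where higher, and is written "at least". Such a gene entered the fit only through its brighter group, so its adjusted p compares signal with background and is given as a description. The 75th percentile itself was 365 ± 12.3 (SD, n = 3) intensity units in saline 4 h and 663 ± 33.6 in LPS 4 h, with 53.8 to 55.0% and 58.2 to 61.4% of probes well above background. The 3 arrays of a group differed by a median SD of 0.048 (saline) and 0.046 (LPS) log2 units, no more than repeated spots on 1 array, so the p values measure a spread that may be technical. Of the markers of excitatory hippocampal neurons, 18 of 19 measured were above background on all saline 4 h arrays and 19 of 19 on all LPS 4 h arrays. The filter largely sets such counts, as 14860 of all 15941 genes were above background on all 6 arrays.

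After LPS, 5072 genes (31.8% of those tested) were called higher and 7879 (49.4%) lower at an adjusted p under 0.05. A difference of 2-fold or more was reached upwards by 1202 (7.54%) and downwards by 705 (4.42%), and one of 8-fold or more by 56 and 6. Of the 2-fold genes, 816 of the higher and 610 of the lower were above background on all arrays of both groups, but only 12 of the 56 and 3 of the 6. Of the 1202 and 705, 1136 and 669 (7.13% and 4.2% of all genes tested) were also called in the deposited matrix, with no overlap of arrays and 1 sign over their probes. Each of the 3 slides carried 1 array of each group, and with slide as a block the 2-fold counts were 1202 up and 704 down. The deposited matrix, which was normalized differently, had 519 up and 222 down at 2-fold, and 5 and 0 at 8-fold. Its values are smaller for dim genes, so for genes near background its log2 difference is given too.

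The saline 4 h arrays stood apart from the other saline group. They differed from the saline 24 h arrays by a median of 0.63 log2 units over all genes in either direction, more than from the LPS 4 h arrays (0.43). Saline 24 h differs from both in time and in scanner run, which cannot be told apart. Of the 148 genes named in the text, 128 kept their direction and call with saline 24 h as controls, and differences from it are given for many of them. Of the 1202 genes that were at least 2-fold higher, 590 were also called higher against saline 24 h and 354 were called lower. Of the 705 lower genes, 145 were lower against saline 24 h as well and 425 (60.3%) were higher. In all, 47.2% of genes were called higher and 30.7% lower against saline 24 h, and 8.61% and 3.48% of all genes by 2-fold or more. Both saline groups were exceeded 2-fold by 330 genes (2.07%) and undercut 2-fold by 43 (0.27%).

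**Figure D1:**
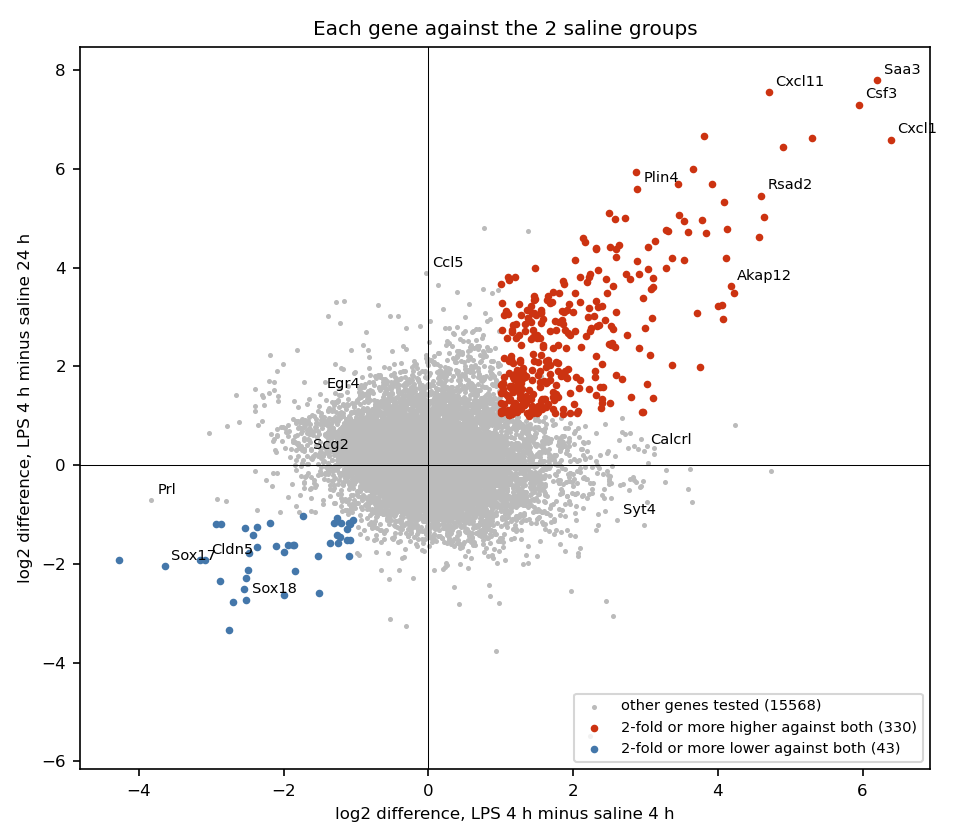
Log2 difference of LPS 4 h from saline 4 h (horizontal) and from saline 24 h (vertical) for each of the 15941 genes, 1 point per gene, with the 330 genes at least 2-fold higher against both in red and the 43 lower against both in blue. Cxcl1, Saa3 and Csf3 lie far up on both axes, Sox17 and Cldn5 are low on both, and Syt4 and Egr4 have opposite signs on the 2 axes; both axes share the LPS 4 h arrays.

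Many cytokines and chemokines rose. Cxcl1, a chemokine that attracts neutrophils (NM_008176, probe at chromosome 5, 91321845 to 91321904 of mm9), had relative intensities of 0.0114, 0.00800 and 0.00796 in the saline 4 h arrays, 0.762, 0.774 and 0.733 in the LPS 4 h arrays and 0.00889, 0.00753 and 0.00717 in the saline 24 h arrays. All saline values were below background and close to each other, and every LPS array was far above them. The rise was at least 20.1-fold (adjusted p = 7.8e-11), or 2.83 log2 units in the deposited matrix. Csf3, the growth factor of granulocytes, went from 0.00996, 0.00950 and 0.00919 to 0.567, 0.627 and 0.575 (at least 15.7-fold, matrix 2.57, and 7.30 in the fit against saline 24 h). Il1b, interleukin-1 beta, was measured in both groups, at 0.0607, 0.0639 and 0.0643 after saline and 0.529, 0.543 and 0.549 after LPS. It rose by 3.1 ± 0.04 (SE, adjusted p = 4.74e-12) and was 3.61 above saline 24 h. Il1rn, the antagonist of the interleukin-1 receptor, rose at least 4.40-fold, with values of 0.171, 0.157 and 0.168 after LPS. Il6, which drives the acute phase, rose at least 4.47-fold (matrix 1.08) and its 3 LPS arrays lay between 0.167 and 0.169. Tnf, the early cytokine of the LPS response, stood at only 0.0367, 0.0411 and 0.0394 after LPS against 0.0163, 0.0152 and 0.0147 after saline. Its bound was 1.04-fold, and with another background correction the difference was -0.02 (adjusted p = 0.951). Il19, a cytokine related to interleukin-10, was among the 30 largest rises too.

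Of 14 measured CC chemokines 9 were called higher and 1 lower, with 4 at least 2-fold higher (median 0.54, against -0.14 for all genes), and 14 were called higher against saline 24 h. Ccl2, which recruits monocytes, had relative intensities of 1.18, 1.15 and 1.17 after saline and 7.67, 7.91 and 7.51 after LPS and rose by 2.72 ± 0.06, or 5.01 against saline 24 h. Ccl7, a related monocyte chemokine, rose at least 8.54-fold and Ccl11, the eosinophil chemokine eotaxin, at least 1.30-fold. Ccl12 rose by 1.02 ± 0.05. Ccl3, Ccl4 and Ccl5, chemokines of activated microglia and T cells, behaved differently. Ccl5 stood at 19.6, 19.4 and 19.5 in saline 4 h and 18.6, 19.6 and 19.1 in LPS 4 h, with overlapping groups and a difference of -0.03 ± 0.04 (adjusted p = 0.469), but at 1.33, 1.30 and 1.24 in saline 24 h. Ccl3 was -0.30 against saline 4 h (adjusted p = 0.17) and 2.77 against saline 24 h, and Ccl4 0.14 (adjusted p = 0.00372) and 3.65. These chemokines were thus high in both groups taken at 4 h.

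The CXC and CX3C chemokines went both ways, with 6 of 11 higher and 4 lower (9 and 2 against saline 24 h). Cxcl10, a chemokine induced by interferon, rose from 3.79, 3.52 and 3.42 to 21.3, 20.9 and 22.1, by 2.59 ± 0.05, and was 4.98 against saline 24 h. Its relatives Cxcl11 and Cxcl9, which share its receptor, rose at least 24.1-fold and by 1.47 ± 0.05. Cxcl12, a chemokine that vessels and stroma make constitutively, fell from 7.51, 7.25 and 7.15 to 2.02, 2.00 and 1.97, by 1.87 ± 0.04 (adjusted p = 7.76e-11). It was lower than saline 24 h too, at -1.63. Cxcl5, a neutrophil chemokine, fell by 1.16 ± 0.04 and was -0.91 against saline 24 h.

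**Figure D2:**
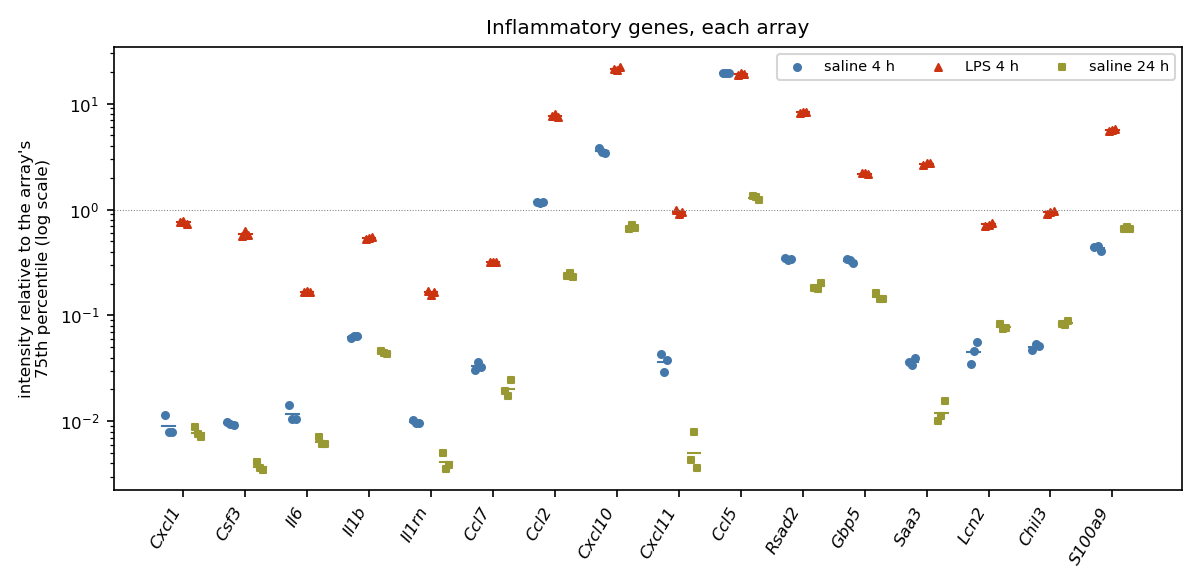
Relative intensity (log scale, 1 is the 75th percentile of an array) of 16 inflammatory genes on each of 3 arrays of saline 4 h, LPS 4 h and saline 24 h, with a bar at the geometric mean. LPS 4 h lies above both saline groups for all of them except Ccl5, where saline 4 h and LPS 4 h overlap at 18.6 to 19.6.

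The promoters of some chemokine and interferon genes show which letters of known binding elements lie before their start sites. The sequences are the 250 bases before the start in RefSeq's build GRCm38.p6, 5′ to 3′ on the gene's strand, and capitals mark matches on either strand to the kappaB type motif (GGG, any 2 bases, TTTCC) or to the interferon element core (GAAA, any 2 bases, GAAA). Cxcl1 is shown because its window holds 2 kappaB type matches, and Cxcl10 because it holds the interferon core. The other 5 are interferon-inducible GTPases and interferon-stimulated genes whose windows hold a match, and they are examples rather than a full set. Windows that hold neither motif, such as those of Cxcl9, Ifi47, Isg20 and Oasl1, are not printed. Those of Gbp7 and Isg15, which hold the interferon core, are not printed either.
Cxcl1 (chr5:90890995-90891244, plus strand): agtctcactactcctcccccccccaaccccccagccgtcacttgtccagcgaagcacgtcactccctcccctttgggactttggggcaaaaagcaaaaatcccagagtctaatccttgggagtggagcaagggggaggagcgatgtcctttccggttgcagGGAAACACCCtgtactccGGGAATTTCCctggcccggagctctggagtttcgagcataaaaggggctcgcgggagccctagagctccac
Cxcl10 (chr5:92348890-92349139, minus strand): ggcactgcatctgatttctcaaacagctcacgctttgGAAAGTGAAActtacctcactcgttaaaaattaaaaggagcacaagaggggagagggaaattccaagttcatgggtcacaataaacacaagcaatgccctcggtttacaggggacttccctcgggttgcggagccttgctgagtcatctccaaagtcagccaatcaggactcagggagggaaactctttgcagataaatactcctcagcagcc
Tgtp1 (chr11:48992247-48992496, minus strand): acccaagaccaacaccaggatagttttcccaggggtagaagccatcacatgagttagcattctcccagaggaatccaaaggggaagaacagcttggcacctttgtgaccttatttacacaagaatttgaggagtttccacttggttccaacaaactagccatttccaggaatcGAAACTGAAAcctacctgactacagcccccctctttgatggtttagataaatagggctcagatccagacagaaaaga
Gbp5 (chr3:142496684-142496933, plus strand): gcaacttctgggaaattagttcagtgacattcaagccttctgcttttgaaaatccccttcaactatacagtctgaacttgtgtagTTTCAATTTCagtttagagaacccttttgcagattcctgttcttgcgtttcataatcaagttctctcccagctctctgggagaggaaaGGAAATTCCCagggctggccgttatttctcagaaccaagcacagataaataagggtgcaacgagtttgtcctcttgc
Gbp2 (chr3:142620413-142620662, plus strand): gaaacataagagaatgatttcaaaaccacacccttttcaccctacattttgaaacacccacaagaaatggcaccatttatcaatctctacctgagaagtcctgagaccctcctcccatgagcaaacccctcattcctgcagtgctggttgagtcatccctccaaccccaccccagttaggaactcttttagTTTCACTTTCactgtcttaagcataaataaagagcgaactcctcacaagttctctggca
Rsad2 (chr12:26456453-26456702, minus strand): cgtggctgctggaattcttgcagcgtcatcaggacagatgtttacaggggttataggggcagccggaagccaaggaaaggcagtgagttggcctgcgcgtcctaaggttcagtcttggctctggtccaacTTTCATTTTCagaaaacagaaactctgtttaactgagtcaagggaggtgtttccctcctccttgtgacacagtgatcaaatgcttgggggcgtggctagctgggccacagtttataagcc
Ifit1 (chr19:34640639-34640888, plus strand): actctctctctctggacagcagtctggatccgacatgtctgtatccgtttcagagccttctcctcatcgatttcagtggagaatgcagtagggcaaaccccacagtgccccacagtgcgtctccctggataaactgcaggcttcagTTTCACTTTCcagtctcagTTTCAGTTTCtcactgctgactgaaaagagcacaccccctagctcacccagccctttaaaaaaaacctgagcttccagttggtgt

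In Cxcl1 the matches start 89 and 71 bases before the start site. Ifit1 holds the interferon core at 104 and 85 bases before the start, and Gbp5 holds 1 match to each motif. Over windows of 300 bases, which reach 50 bases past the start, the interferon core was in 3.44% of 32851 windows and the kappaB type motif in 1.63%, and in 3 windows they overlapped. Among tested genes with a window the interferon core was found in 418 of 11348 (3.68%). Among those at least 2-fold higher it was in 45 of 759 (5.93%), and among those at least 2-fold higher against both saline groups in 29 of 204 (14.2%). The interferon-inducible GTPases held it in 8 of 9 windows and the interferon-stimulated genes in 11 of 21. The kappaB type motif was in 13 of the 204 windows (6.37%) against 1.97% of tested genes. Of the measured chemokines, 1 of 8 CXC and CX3C windows and 1 of 9 CC windows held it. The letters TATAAA of the TATA box, counted the same way, were in 45 of the 204 (22.1%) against 9.63% of tested genes. A match is a description of the letters and no measured binding.

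Receptors and signalling genes of the LPS pathway rose in part. Cd14 stood at 5.53, 5.21 and 5.16 after saline and 24.3, 24.7 and 24.9 after LPS, a rise of 2.22 ± 0.04 (adjusted p = 1.29e-11), with saline 24 h lower still at 1.70, 1.82 and 1.73. Of 18 measured genes of LPS sensing, 11 were higher and 1 lower. The list includes Irak3, a brake on Toll-like receptor signalling (at least 5.09-fold), the adaptor Tirap (1.45 ± 0.07) and the RNA sensor Tlr7 (1.12 ± 0.05). Of 10 inflammasome genes 8 were higher, 4 of them at least 2-fold, among them Mefv, which encodes pyrin.

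Of 18 NF-kappaB subunits and inhibitors 14 rose and 1 fell, with a median of 0.55. The inhibitor Nfkbia, a direct feedback target, went from 19, 21.8 and 21.9 to 42.6, 45.1 and 45. The 5 that rose at least 2-fold, also against saline 24 h, were Nfkbia (1.08 ± 0.07), the inhibitor-like cofactors Nfkbiz (1.79 ± 0.09) and Bcl3 (1.12 ± 0.05), the subunit Nfkb2 (1.76 ± 0.04) and Birc3, a ubiquitin ligase of the pathway (1.34 ± 0.05). In the JAK-STAT list 10 of 19 rose and 4 fell. Socs3, the inhibitor induced by interleukin-6, went from 4.51, 4.54 and 4.43 to 27.6, 28.2 and 27.8, or 2.63 ± 0.03 (4.46 against saline 24 h). The kinase Pim1 rose at least 2.52-fold and Jak3 by 1.12 ± 0.06. Among cytokine and chemokine receptors, Il4ra rose by 2.24 ± 0.05, the shared beta chain Csf2rb by 1.55 ± 0.04 and the chemerin receptor Ccrl2 by 1.43 ± 0.03. The transcription factors Klf6 (1.51 ± 0.03) and Myc (1.26 ± 0.05) and the mRNA decay factor Zfp36 (1.81 ± 0.26), which limits cytokine transcripts, rose against both saline groups.

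Of 29 measured interferon-stimulated genes 26 were higher and 1 lower, 13 of them at least 2-fold higher against both saline groups (median 0.87). Rsad2, the antiviral enzyme viperin (NM_021384, probe at chromosome 12, 27127859 to 27127918 of mm9), had values of 0.349, 0.331 and 0.340 after saline and 8.16, 8.27 and 8.36 after LPS. The groups were far apart, and the rise was 4.60 ± 0.05 (adjusted p = 1.39e-12). Ifit1, which binds viral RNA, rose by 2.59 ± 0.34, the exonuclease Isg20 by 2.59 ± 0.04, Oasl1 by 2.50 ± 0.04 and Mx2 by 1.45 ± 0.05. Irf7, the factor that amplifies interferon, rose by 1.59 ± 0.06, and Batf2 by 1.07 ± 0.09. Against saline 24 h all 29 were called higher, with a median of 2.50.

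The interferon-inducible GTPases, which attack membranes around pathogens, were higher in 14 of 14, and 10 of them at least 2-fold against either saline group (median 1.98). Gbp5 stood at 0.339, 0.334 and 0.316 and 2.20, 2.19 and 2.17, Gbp2 at 1.21, 1.25 and 1.23 and 6.52, 6.49 and 6.50, and Tgtp1 at 1.46, 1.41 and 1.46 and 9.68, 10.1 and 10.1, in saline 4 h and LPS 4 h. No saline array reached an LPS array for any of them. Gbp4 was at least 16-fold higher and Gbp9 rose by 2.47 ± 0.06. Tgtp1 has a near-identical copy and the Gbp genes are close relatives, so a probe may read more than 1 of them.

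Genes of antigen presentation on MHC class I, another group that interferon induces, differed in direction with the scale and the saline group. Of 16, 2 were higher and 10 lower, beside 31.8% and 49.4% of all genes, with a median of -0.29 that was -0.01 in the deposited matrix and 1.04 against saline 24 h. H2-K1, a class I heavy chain, went from 91.9, 88.4 and 87.8 in saline 4 h to 52, 53 and 53 in LPS 4 h, a fall of 0.76 ± 0.04, but stood at 16.1, 16.8 and 16.2 in saline 24 h. B2m, the light chain, fell by 0.49 ± 0.03 against saline 4 h and was 1.03 above saline 24 h. Against saline 24 h all 16 were called higher.

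Acute phase proteins, best known from the liver, were higher in 15 of 18 and lower in 0, with 13 at least 2-fold and 12 against both saline groups (median 1.95). The median was 1.84 with the 6 members that were below background in saline at their bound, and 1.33 in the deposited matrix. Saa3, a serum amyloid A made outside the liver (NM_011315, probe at chromosome 7, 53968031 to 53968090 of mm9), went from 0.0360, 0.0341 and 0.0399, below background, to 2.61, 2.74 and 2.74. It rose at least 70.4-fold (adjusted p = 4.05e-11), or 4.06 log2 units in the deposited matrix. Saa1 and Saa2, near-identical in sequence, rose by 2.29 ± 0.05 and 2.32 ± 0.07. Lcn2, a lipocalin that binds bacterial iron carriers, rose by 4.01 ± 0.14, from 0.0350, 0.0465 and 0.0556 to 0.701, 0.716 and 0.754, and was above background on 2 of the 3 saline arrays. The haemoglobin scavenger haptoglobin, Hp, rose by 2.88 ± 0.07 and the pentraxin Ptx3 by 1.81 ± 0.06. The protease inhibitor Serpina3f rose at least 8.11-fold and the metalloreductase Steap4 at least 5.49-fold.

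In the complement list 7 of 18 were higher and 9 lower, near the shares of all genes (31.8% and 49.4%), and against saline 24 h 16 were higher and 1 lower. Cfb, factor B of the alternative pathway, rose by 1.47 ± 0.05. C3, the central component, fell by 0.40 ± 0.04 against saline 4 h and was 1.62 above saline 24 h. In the deposited matrix its difference was -0.08, which was not called. Of 17 coagulation genes 9 were higher and 6 lower. Coagulation factor F10 rose at least 7.38-fold, and Plaur, the receptor of urokinase, by 1.65 ± 0.04. The thrombin receptor F2r rose by 1.33 ± 0.05.

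Genes of neutrophils and blood monocytes were higher in 15 of 18 and lower in 2. Their median of 2.39 fell to 0.90 with the 8 members that were below background in saline at their bound, and was 0.60 in the deposited matrix. S100a9, a subunit of the myeloid protein calprotectin, stood at 0.439, 0.451 and 0.409 after saline, 5.51, 5.69 and 5.75 after LPS and 0.656, 0.690 and 0.649 in saline 24 h. It rose by 3.71 ± 0.05 (adjusted p = 3.99e-12). Its partner S100a8, measured on 1 saline array, rose by 3.08 ± 0.15. Chil3, a chitinase-like protein of myeloid cells, rose by 4.22 ± 0.06 and Plac8 by 2.35 ± 0.05. Trem1, an amplifier of myeloid activation, rose at least 3.83-fold, the formyl peptide receptors Fpr1 and Fpr2 at least 5.57-fold and 2.38-fold, and the neutrophil collagenase Mmp8 at least 2.26-fold. Csf3r, the receptor of granulocyte growth factor, and Ly6c2, a marker of inflammatory monocytes, were not higher on the 75th percentile scale: Csf3r fell by 0.28 ± 0.06 and Ly6c2 was -0.03 ± 0.04 (adjusted p = 0.561). In the deposited matrix Ly6c2 was called higher (0.27, adjusted p = 0.000163). The summed relative intensity of the list was 20.8 to 21.0 in saline 4 h, 27.8 to 28.7 in LPS 4 h and 10.3 to 11 in saline 24 h. The part of blood left in the vessels in these values was not tested.

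Of 25 genes of activated microglia and macrophages 18 were higher and 6 lower, 7 of them at least 2-fold higher against both saline groups. Their summed relative intensity, which the brightest genes dominate, was 814 to 850 in saline 4 h, 576 to 629 in LPS 4 h and 372 to 395 in saline 24 h, so the sum and the counts differ in direction. Clec4e, a receptor for mycobacterial glycolipid, rose at least 8.78-fold and its partner Clec4d at least 7.01-fold. Cd40, a co-stimulatory receptor, went from 0.0468, 0.0474 and 0.0502 to 0.386, 0.414 and 0.390, by 3.04 ± 0.05. The antibody receptor Fcgr3 rose by 1.44 ± 0.04 and Ms4a6d by 1.58 ± 0.05. The scavenger receptor Msr1 rose by 1.96 ± 0.38, but 1 of its saline arrays, at 0.119, lay well above the other two. Cx3cr1, the fractalkine receptor of homeostatic microglia, went the other way, from 2.96, 2.86 and 2.89 to 1.18, 1.22 and 1.15, a fall of 1.30 ± 0.04. It was the one of 16 homeostatic genes that was at least 2-fold lower against both saline groups. Most of these 16 genes were called lower against saline 4 h, but most were called higher against saline 24 h. Of the reactive astrocyte genes, 21 of 35 were higher and 9 lower, 12 of them at least 2-fold higher against both saline groups. This list includes Lcn2, Cxcl10, Gbp2, Cd14, Fkbp5, Ptx3 and Ptgs2, whose rises are given in other paragraphs. Its counts are thus no separate result for astrocytes. The sums of the list were 305 to 315 in saline 4 h, 301 to 304 in LPS 4 h and 116 to 119 in saline 24 h.

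**Figure D3:**
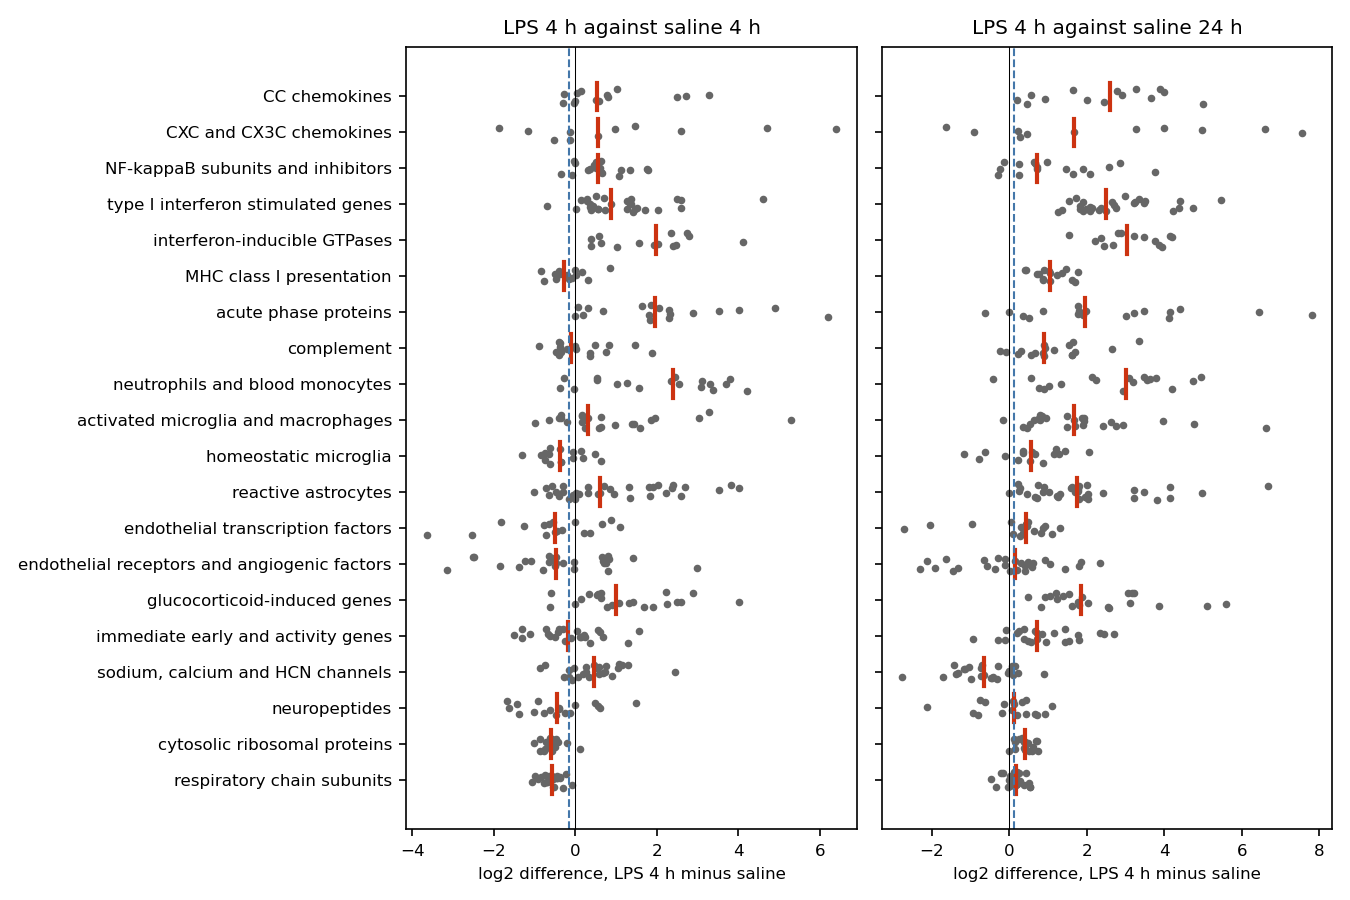
Log2 difference of each measured member (points) of 20 gene lists, with the list median (red bar) and the median of all genes (blue dashed line), for LPS 4 h against saline 4 h (left) and against saline 24 h (right). Interferon-inducible GTPases have medians of 1.98 and 3.05, while sodium, calcium and HCN channels have 0.47 and -0.66.

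Some genes of the vessel wall fell against both saline groups, while the lists they belong to turned with the saline group. Of 17 endothelial transcription factors 11 were lower and 4 higher (median -0.49), but 3 lower and 12 higher against saline 24 h (0.43). Of 27 endothelial receptors and angiogenic factors 15 were lower and 10 higher (median -0.47), near the shares of all genes, and 10 lower and 14 higher against saline 24 h (0.15). At least 2-fold lower against both were 2 of the 17 and 4 of the 27, beside 0.27% of all genes. Cldn5, the main tight junction claudin of brain endothelium (NM_013805, probe at chromosome 16, 18778046 to 18778105 of mm9), stood at 26.7, 27.6 and 27 in saline 4 h, 3.28, 3.36 and 2.98 in LPS 4 h and 11.7, 13 and 11.9 in saline 24 h. Each LPS array was below every saline array of either time, and the fall was 3.08 ± 0.06 (adjusted p = 4.1e-11). Sox17, a factor of arterial identity (NM_011441, probe at chromosome 1, 4481503 to 4481562 of mm9), went from 1.14, 1.06 and 1.01 to 0.0853, 0.0859 and 0.0856, a fall of 3.64 ± 0.05. Its relative Sox18 fell by 2.52 ± 0.06. Among receptors, the angiopoietin receptor Tek fell by 2.52 ± 0.06, the VEGF receptor Kdr by 1.86 ± 0.03 and the endothelial phosphatase Ptprb by 2.48 ± 0.03. Aplnr and Myct1 fell below background, at least 2.56-fold and 4.78-fold. Hspa12b, a heat shock protein of endothelium, fell by 2.37 ± 0.13, the riboflavin transporter Slc52a3 by 2.54 ± 0.05, the sphingolipid enzyme Degs2 by 2.88 ± 0.07, the arterial gene Gkn3 by 2.54 ± 0.08 and the organic anion transporter Slco1a4 by 1.53 ± 0.06. All of these were at least 2-fold lower against saline 24 h as well.

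Other endothelial genes rose or changed less. Pecam1, a junction protein of all endothelium, went from 0.138, 0.141 and 0.137 to 0.0688, 0.0766 and 0.0707, a fall of 0.95 ± 0.06, whereas Cdh5, the endothelial cadherin, rose by 1.04 ± 0.03, from 0.386, 0.370 and 0.383 to 0.781, 0.780 and 0.777. Of 12 adhesion genes 4 were higher and 8 lower (median -0.45), beside 31.8% and 49.4% of all genes. Against saline 24 h 8 were higher and 3 lower, beside 47.2% and 30.7% of all genes. Only 2 of the 12 were at least 2-fold higher against saline 4 h, and 1 was at least 2-fold lower. Selp, the P-selectin that captures leukocytes, rose at least 6.57-fold, and Icam1 rose by 1.10 ± 0.04. Calcrl, the receptor of adrenomedullin, rose by 2.98 ± 0.06, but its saline 24 h values of 1.31, 1.40 and 1.51 were near those of LPS 4 h (1.75, 1.77 and 1.65). Ptgs2, the inducible cyclooxygenase, rose by 2.37 ± 0.08 (1.58 against saline 24 h), and the phospholipase Pla2g3 at least 2.13-fold.

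**Figure D4:**
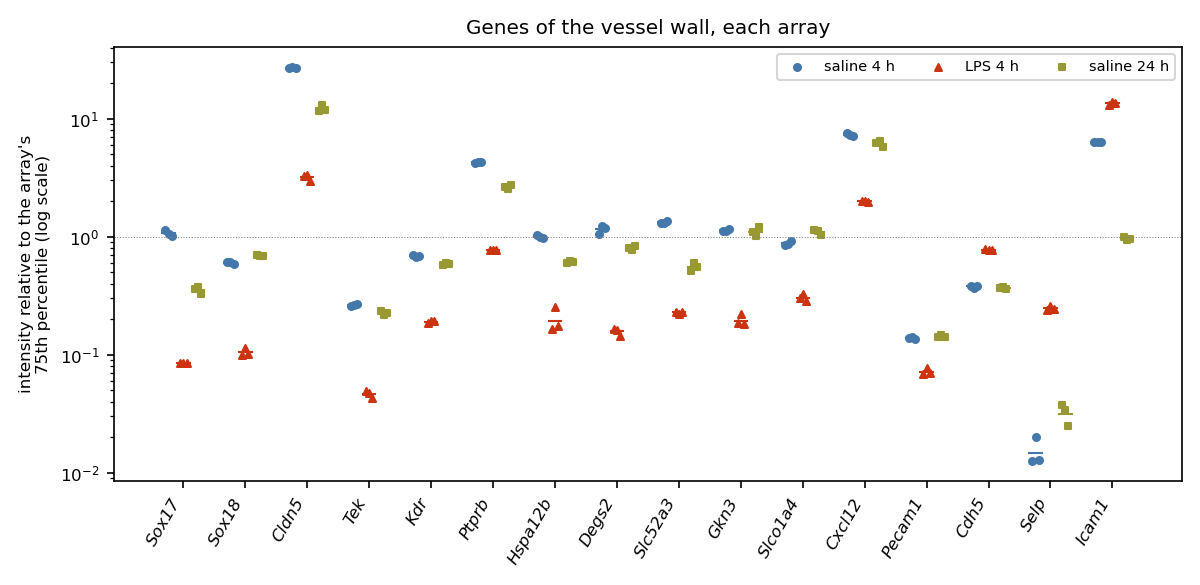
Relative intensity (log scale) of 16 genes of the vessel wall on each of 3 arrays of saline 4 h, LPS 4 h and saline 24 h, with a bar at the geometric mean. Sox17, Cldn5 and the genes up to Pecam1 are lowest in LPS 4 h, and Cdh5, Selp and Icam1 are highest there.

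Genes that glucocorticoids induce rose in 19 of 22, with 2 lower and 11 at least 2-fold higher against both saline groups (median 0.99). Plin4, a lipid droplet protein, stood at 4.71, 4.80 and 4.72 after saline and 34.3, 35.8 and 34.8 after LPS, and rose by 2.88 ± 0.04 (adjusted p = 3.99e-12). Saline 24 h was lower again, at 0.734, 0.695 and 0.733. The cell cycle inhibitor Cdkn1a rose by 2.59 ± 0.04, Hif3a by 2.49 ± 0.07, the lipase inhibitor Angptl4 by 2.24 ± 0.06 and the kinase Map3k6 by 2.21 ± 0.04. Fkbp5, a brake on the glucocorticoid receptor, rose by 1.90 ± 0.04, Arrdc2 by 1.69 ± 0.07, the anti-inflammatory Tsc22d3 (GILZ) by 1.42 ± 0.04 and Errfi1 by 1.31 ± 0.05.

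Of 16 matrix proteases and inhibitors 9 were higher and 3 lower. Adamts9 rose by 2.59 ± 0.04, the stromelysin Mmp3 by 1.54 ± 0.09 and Adam8 by 1.45 ± 0.07. Acod1, the macrophage enzyme that makes itaconate, rose by 3.92 ± 0.14, and Ch25h, which makes an antiviral oxysterol, by 1.01 ± 0.03. Among genes of cell death, the necroptosis effector Mlkl rose by 2.01 ± 0.11 and Pmaip1 by 1.02 ± 0.03. The small heat shock protein Hspb1 rose by 1.33 ± 0.04. Akap12, a scaffold for protein kinases, had one of the largest rises measured in both groups, from 2.29, 2.12 and 2.09 to 37.9, 40.5 and 39.4, or 4.18 ± 0.04.

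Of the 30 largest rises with a plain symbol that were called in the deposited matrix too, 26 were at least 2-fold higher against both saline groups, and of the 20 largest falls 16 were lower. In 23 of the 30 rises the gene was below background on all saline 4 h arrays. Besides genes named above, the rises include Mcoln2 (at least 4.30-fold), Apol10b (at least 5.79-fold), Apol7c (at least 3.04-fold), Slc10a6 (at least 12-fold), Aire (at least 5.47-fold) and Slfn4 (at least 3.06-fold). Rbm47 (at least 6.74-fold), Kmt2d (at least 3.37-fold), Ppwd1 (at least 4.31-fold) and Acot2 (at least 3.73-fold) rose against saline 4 h, but were 0.81, -0.75, -0.07 and -0.48 in the fit against saline 24 h. The falls include Krt33a (at least 4.92-fold lower), Defb9 (at least 2.01-fold lower), Ftcd (at least 4.67-fold lower), Ikzf3 (at least 5.42-fold lower), Insc (-2.42 ± 0.09) and Wfdc18 (-2.39 ± 0.06), of which Wfdc18 was 1.55 in the fit against saline 24 h.

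Neuronal genes changed in a direction that depended on the saline group. Of 25 sodium, calcium and HCN channel genes 17 were higher and 5 lower against saline 4 h, but 3 higher and 18 lower against saline 24 h. The metabotropic glutamate receptor Grm5 stood at 0.942, 0.949 and 0.935 in saline 4 h, 2.32, 2.36 and 2.31 in LPS 4 h and 4.54, 5.35 and 5.2 in saline 24 h, so LPS 4 h lay between the saline groups (1.31 and -1.11). The vesicle proteins Syp (1.18 and -1.29) and Syt4 (2.61 and -1.12) did the same against saline 4 h and saline 24 h. Neuropeptides were lower in 13 of 18 and higher in 4 against saline 4 h, where more of all genes were lower than higher too. Against saline 24 h equal numbers of neuropeptides were called higher and lower. No neuropeptide was at least 2-fold lower against both saline groups. Scg2, a secretogranin, fell from 46.7, 53.7 and 55.1 to 15.7, 16.5 and 16.1, near its saline 24 h values of 16.2, 12.4 and 14.1. The activity-regulated genes Bdnf and Egr4 fell by 1.31 ± 0.04 and 1.49 ± 0.05, and were 0.38 and 1.44 against saline 24 h.

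Bright housekeeping genes were lower on the 75th percentile scale: 25 of 25 respiratory chain subunits and 19 of 20 cytosolic ribosomal proteins were called lower, with medians of -0.57 and -0.60. In the deposited matrix the medians were -0.14 and -0.06, and against saline 24 h they were 0.18 and 0.39. The shift followed signal over all genes. With the genes ranked by signal in 5 equal groups, the dimmest group had a median of 0.09 and the brightest of -0.41, and 16.5% and 1.85% of their genes were at least 2-fold higher. In the deposited matrix the 5 medians ran only from -0.02 to -0.09.

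**Figure D5:**
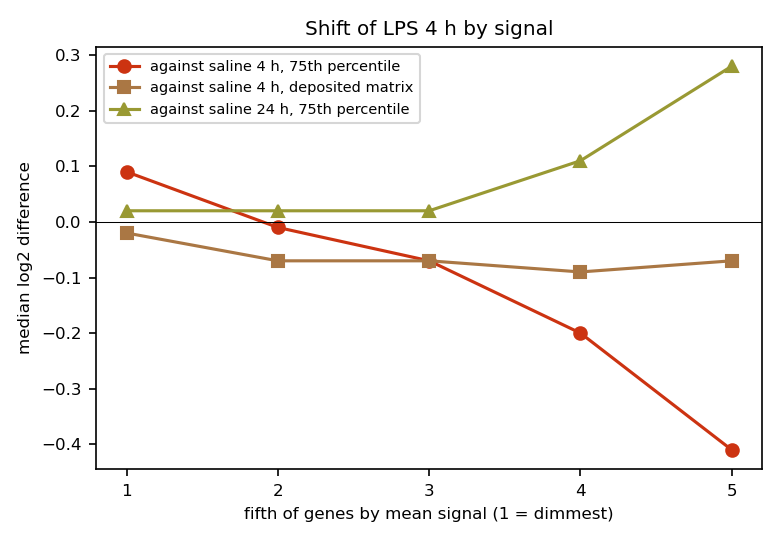
Median log2 difference of LPS 4 h in 5 equal groups of genes ranked by mean signal (3188 or 3189 genes each), against saline 4 h under 75th percentile scaling and in the deposited matrix, and against saline 24 h. The first falls from 0.09 to -0.41 as signal rises, the second stays between -0.02 and -0.09.

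Markers of neighbouring tissue differed between the groups. Prl, the pituitary hormone prolactin, stood at 1.46, 1.45 and 1.39 in saline 4 h, 0.104, 0.0919 and 0.107 in LPS 4 h and 0.169, 0.176 and 0.152 in saline 24 h, and fell by 3.83 ± 0.14. Gh and Cga, 2 other pituitary hormone genes, fell at least 3.91-fold and 5.46-fold. The summed relative intensity of 5 measured pituitary genes was 5.87 to 6.03, 2.51 to 2.70 and 1.90 to 1.93 in the same order. For the 12 thalamic genes the sums were 35 to 35.9, 26.7 and 11.1 to 11.5. Of these genes 4 were higher and 8 lower (median -0.33), and 12 were higher against saline 24 h. At least 2-fold, 1 was higher and 1 lower, and the lower 1 did not meet all of the matrix, array and probe rules. Tcf7l2 stood at -1.29 and Gbx2 at -0.87 against saline 4 h, and at 2.05 and 2.70 against saline 24 h. For red blood cell genes the sums were 438 to 447, 211 to 221 and 255 to 269. The sums of excitatory hippocampal neurons also fell after LPS, at 286 to 288, 224 to 230 and 211 to 219. The brightest genes dominate such sums. Most measured members of this list were called higher against saline 4 h, and more were called lower than higher against saline 24 h. The sums of astrocytes fell too, at 1140 to 1150, 775 to 800 and 550 to 564, whereas those of neutrophils and blood monocytes rose. The astrocyte genes themselves were split almost evenly between higher and lower against saline 4 h. Most of them were called higher against saline 24 h. Drd2, a dopamine receptor of the striatum, was -3.25 in LPS 4 h against saline 24 h and -0.31 (adjusted p = 0.0826) against saline 4 h. The part of dissected tissue in the differences above was not tested.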

How the data were processed

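RNA of 12 hippocampal samples was hybridised to one-colour Agilent arrays, per the labels' protocols. Per the file headers, the deposited intensity values were extracted with Agilent Feature Extraction 10.7.3.1, with background subtracted (the submitters' processing notes name 9.1), and probe positions are on mm9. The authors also deposited a matrix of log2 values. Here the log2 processed intensity was averaged over spots of a probe, leaving out 926 spots with outlier flags, and each array was scaled by subtracting its own 75th percentile. Of 41174 probes, 27580 were named by accession, 5413 by symbol and 663 by synonym in the RefSeq table, and 7518 kept their file name. A gene is its entered probe with the highest mean over the 6 arrays at 4 h. More than 1 probe was tested for 5779 genes, and in 1064 of these the probes were called in opposite directions.

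Means of 4 groups were fitted over 12 arrays with limma 3.58.1 in R 4.3.3 (lmFit, eBayes, two-sided), after a check on simulated data. The number of arrays limits the precision, and 0 spots were saturated. Named genes are the 30 largest rises and 20 largest falls that were at least 2-fold, called the same way in the deposited log2 matrix, non-overlapping and of 1 sign over their probes, up to 4 such members per list and direction, and other list members that did not follow their list; some genes are not reported here. The members and the 67 gene lists were chosen with earlier results of these data known. The rule of 2-fold against both saline groups was added after the data were seen. Alternatives covered background, scaling, filter, probe rule, arrays fitted, controls, blocks, thresholds and leaving out each array. Lists were described by counts and medians, with no test.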

Additional observations from a re-analysis of the deposited data

How the results depend on the processing

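With normexp background correction 3252 genes were called higher, 446 at least 2-fold higher and 302 at least 2-fold lower. The deposited matrix gave 519 and 222 at least 2-fold, and median scaling 1246 at least 2-fold lower. With no filter 11905 were called lower and 1219 at least 2-fold lower. With saline 24 h as controls 4886 were called lower, and 2-fold against both saline groups left 330 higher and 43 lower. A test against 1.5-fold called 1715 higher and 1748 lower, as it is stricter by construction. The cause of the other moves was not tested. Leaving out each array gave 4819 to 4969 genes higher, 7545 to 7692 lower, 1194 to 1226 at least 2-fold higher and 688 to 716 at least 2-fold lower. Of all calls, 39.2% were higher; the share was 28.3% with median scaling and 60.7% against saline 24 h. The median of all genes, -0.14, was -0.31 with median scaling and 0.11 against saline 24 h.

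Replicate numbers do not pair the samples: arrays of the same number had deviations correlated at -0.03, 0.13 and -0.22. The deviations of arrays on 1 slide were correlated at 0.33, 0.01 and 0.2. With a slide block 5109 genes were called higher and 7912 lower, and of the 148 genes named in the text 147 kept their call and 1 gained it. With a replicate block 4997 genes were called higher and 7772 lower, 1202 and 706 at least 2-fold, and none of the 148 changed its call.

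Of those 148 genes, 145 kept direction and call in the deposited matrix and 128 against saline 24 h, where 19 turned: Ccl3 (2.77), Ccl5 (3.89), H2-K1 (1.69), B2m (1.03), C3 (1.62), Ly6c2 (1.04), Csf3r (0.90), Bdnf (0.38), Egr4 (1.44), Scg2 (0.19), Tcf7l2 (2.05), Gbx2 (2.70) and Wfdc18 (1.55) to higher, and Syt4 (-1.12), Grm5 (-1.11), Syp (-1.29), Kmt2d (-0.75), Ppwd1 (-0.07) and Acot2 (-0.48) to lower. Genes were named mostly for being called the same way in the deposited matrix, so the count of 145 was largely set by that choice. Among all genes at least 2-fold higher or lower, 49.1% and 20.6% kept their call against saline 24 h. Tnf turned to -0.02 with normexp and Ccl4 to -0.03 with median scaling. Ccl5 was 0.27 with quantile normalization, 0.29 in the deposited matrix and 0.15 with the mean of its probes, and Ly6c2 was 0.27 and 0.27 in the first 2 of these.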

Other observations

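Other gene lists are given here by their counts, beside 31.8% of all genes higher and 49.4% lower. Of 12 lymphocyte genes 2 were higher and 8 lower (median -0.47), and their summed relative intensity was 4.97 to 5.03 after saline and 4.60 to 4.72 after LPS. Against saline 24 h, where the sum was 2.52 to 2.60, 9 were higher and 3 lower (median 0.78). Of 26 listed cell cycle genes 23 were measured, 3 higher and 14 lower, and 17 higher and 5 lower against saline 24 h. Circadian clock genes were split, with 7 of 15 higher and 6 lower (4 and 8 against saline 24 h), as were those of hypoxia and glycolysis, with 7 of 18 higher and 9 lower (7 and 7). Cholesterol synthesis genes were lower in 12 of 21 and higher in 5 (7 and 11 against saline 24 h). Metallothioneins and iron handling genes were higher in 6 of 17, 4 of them at least 2-fold against both saline groups, and lower in 10 (14 and 3 against saline 24 h). Of 36 potassium channel genes 21 were higher and 9 lower, but against saline 24 h 8 were higher and 20 lower.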
